A study of Mus musculus with 12 samples.

Results

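The genes described here are Adgre1, Csf1r, Cd68, C1qa, C1qb, C1qc, Cx3cr1, Lyz2, Mrc1 and Cd163, which are 10 of the 54532 genes counted by RNA-Seq in mouse colon. They were chosen by gene symbol as macrophage markers and complement C1q chains, and each symbol matched exactly 1 row of the count table. The series holds colon tissue of 12 male wild-type C57BL/6J mice that were 5 weeks old when obtained, labelled as 3 mice in each of 4 groups. The control group drank plain water, and the other groups drank water with dextran sodium sulfate (DSS), which damages the epithelial lining and sets off colitis. Mice of the model group were given nothing else. The Rhy group received DSS and rhynchophylline, a plant alkaloid, and the DXM group received DSS and dexamethasone, a synthetic glucocorticoid, at 4 mg/kg. The labels name Rhy doses of 2, 4 and 8 mg/kg without saying which dose the sequenced mice received.

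Macrophages of the colon lie in the lamina propria and muscle layer, where most are renewed from blood monocytes that mature in the tissue. They clear dying cells and bacteria, and resident macrophages are a main source of C1q, the recognition molecule that starts the classical complement pathway when it binds antibody complexes or cell debris. C1q is built from chains encoded by C1qa, C1qb and C1qc. Csf1r is the receptor for the growth factors Csf1 and Il34 on which macrophages depend, Adgre1 encodes the F4/80 surface antigen, and Cd68 is a lysosomal glycoprotein of phagocytes. Cx3cr1 is the receptor for the chemokine Cx3cl1 and is typical of gut macrophages, Lyz2 encodes lysozyme M of macrophages and granulocytes, Mrc1 encodes the mannose receptor CD206, and Cd163 encodes the scavenger receptor for haemoglobin-haptoglobin complexes.

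The C1q genes lie side by side on chromosome 4 (mm10, the build that the submitters' processing notes name), all on the minus strand. C1qb (ENSMUSG00000036905) spans 136880129 to 136886187, C1qc (ENSMUSG00000036896) spans 136889804 to 136893065, and C1qa (ENSMUSG00000036887) spans 136895917 to 136898803. The whole cluster covers 18675 bases, with gaps of 3616 bases between C1qb and C1qc and 2851 bases between C1qc and C1qa. The members of the cluster varied together between libraries, while Mrc1 and Cd163 differed between groups in their ratio to C1qb. Promoter windows of C1qb, C1qc, Mrc1 and Cd163 are therefore shown, each from 250 bases before to 50 bases after the RefSeq start on the GRCm38.p6 assembly. Capitals mark every GAGGAA, or TTCCTC where it lies on the other strand, which is the core of the site bound by PU.1, the transcription factor of the macrophage lineage encoded by Spi1. The windows are chr4:136886151-136886450 (minus strand) for C1qb, chr4:136892865-136893164 (minus strand) for C1qc, chr2:14229164-14229463 (plus strand) for Mrc1 and chr6:124304401-124304700 (plus strand) for Cd163.
C1qb: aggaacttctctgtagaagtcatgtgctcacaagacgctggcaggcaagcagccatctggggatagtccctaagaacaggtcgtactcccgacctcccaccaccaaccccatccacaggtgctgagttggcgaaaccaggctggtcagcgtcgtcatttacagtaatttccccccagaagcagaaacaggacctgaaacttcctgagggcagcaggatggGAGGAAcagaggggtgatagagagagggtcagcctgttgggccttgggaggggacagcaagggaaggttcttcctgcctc
C1qc: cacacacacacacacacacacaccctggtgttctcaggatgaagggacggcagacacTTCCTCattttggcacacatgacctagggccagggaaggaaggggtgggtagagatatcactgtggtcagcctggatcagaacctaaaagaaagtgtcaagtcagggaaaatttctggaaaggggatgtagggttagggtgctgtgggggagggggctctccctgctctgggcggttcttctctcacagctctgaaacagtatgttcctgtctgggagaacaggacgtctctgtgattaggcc
Mrc1: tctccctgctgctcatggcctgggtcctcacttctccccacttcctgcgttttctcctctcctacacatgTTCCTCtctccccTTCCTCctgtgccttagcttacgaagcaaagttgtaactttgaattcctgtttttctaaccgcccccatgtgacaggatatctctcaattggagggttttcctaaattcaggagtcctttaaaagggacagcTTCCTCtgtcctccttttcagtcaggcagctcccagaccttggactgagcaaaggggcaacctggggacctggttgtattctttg
Cd163: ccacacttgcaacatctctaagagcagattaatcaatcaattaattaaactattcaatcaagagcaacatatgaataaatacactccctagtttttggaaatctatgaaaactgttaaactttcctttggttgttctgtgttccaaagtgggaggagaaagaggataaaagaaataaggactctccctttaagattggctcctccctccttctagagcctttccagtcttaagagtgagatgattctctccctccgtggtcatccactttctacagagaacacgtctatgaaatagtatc

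The GAGGAA core began at position -30 relative to the start in C1qb, at -193 in C1qc, and at -180, -167 and -35 in Mrc1, while the Cd163 window held none. Of the 10 genes, 7 had a window in the RefSeq table, and 4 of these 7 held GAGGAA on either strand, against 28.3% of all 32851 windows. The longer site GAGGAAGT, which contains the core, was found in 1 of the 7 (C1qc) and in 3.2% of all windows. The interferon response element GAAANNGAA was in 0 of the 7 and in 8.56% of all windows. These matches describe letters in a short window, and no binding was measured.

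The remaining genes lie on other chromosomes of mm10. Adgre1 (ENSMUSG00000004730) spans 57358691 to 57483527 on chromosome 17, Cd68 (ENSMUSG00000018774) spans 69664213 to 69666153 on chromosome 11, and Lyz2 (ENSMUSG00000069516) spans 117277331 to 117282321 on chromosome 10. Cx3cr1 (ENSMUSG00000052336) spans 119901616 to 120069879 on chromosome 9, Mrc1 (ENSMUSG00000026712) spans 14229392 to 14332057 on chromosome 2, and Cd163 (ENSMUSG00000008845) spans 124304656 to 124330527 on chromosome 6. Csf1r (ENSMUSG00000024621) spans 61105572 to 61132149 on chromosome 18. The Cx3cr1 span overlaps 9 other genes and the Csf1r span overlaps Hmgxb3 on the opposite strand, so reads of these genes are uncertain because the use of strand in counting is not stated. Lyz2 has a close paralog, Lyz1, which lay at 0.549 to 17.2 CPM.

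Total counts were 14346478 to 17749716 per library. Expression is given as CPM, the read count relative to the TMM-scaled library total, and edgeR's quasi-likelihood test was run over the 16904 genes that passed a filter on low counts, which kept all 10 members. No gene passed an adjusted p of 0.05 in any comparison in edgeR, so values with an unadjusted p under 0.05 are given as such. DESeq2 called 46 genes for model against control, 5 for Rhy against model, 51 for DXM against model and 9 for DXM against Rhy. Model 1 and model 2 resembled each other much more closely than the remaining pairs did, with a common dispersion of 0.002012 against 0.06044 to 0.3512 in those 65 pairs, and the labels list them as separate samples without saying whether they came from separate tissues. If they did not, the model group would hold 2 samples, which was not tested. The members' fold changes against the model are therefore also given with both summed into 1 library and their group separations with both averaged into 1 sample, while the ranges, intervals and list counts treat them as 2 libraries. Hoxb13, a gene of the distal colon, lay under 5 CPM in control 3 (0.165), model 3 (1.49) and Rhy 1 (0) and at 71.97 to 316.5 CPM in the other libraries. The epithelial markers summed to 19073 to 43618 CPM. Of 13 neutrophil markers, Elane was at 0 in every library, and the 12 markers other than Ly6g reached at most 4.66 CPM (S100a8), while Ly6g lay at 2.42 to 681.7 CPM. The 5 neutrophil markers that passed the filter were all lower in the model than in the control and all higher in DXM than in the model, with an unadjusted p under 0.05 for S100a8 in both (log2 fold changes -3.99 and 4.31). The labels do not say how the tissue pieces were taken along the colon, and p-values measure only the spread between these libraries.

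Lyz2 was the most abundant of the genes in the colon. On the FPKM scale, which divides by gene length and so allows genes to be compared, the mean level over the 12 libraries was 130.2 for Lyz2, 41.6 for C1qa, 22.7 for C1qb, 14.7 for C1qc, 6.90 for Cd68, 3.34 for Csf1r, 1.77 for Mrc1, 1.23 for Adgre1, 1.01 for Cx3cr1 and 0.356 for Cd163. Each gene from Lyz2 to C1qc exceeded the next in the order in 12 of 12 libraries, as did Csf1r over Mrc1. The order of the remaining neighbours was not the same in every library, since Cd68 exceeded Csf1r in 11, Mrc1 exceeded Adgre1 in 9, Adgre1 exceeded Cx3cr1 in 9 and Cx3cr1 exceeded Cd163 in 11.

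The shares of the C1q chains varied less than their levels. Of the summed FPKM of the chains, C1qa made up 52.6% ± 2.66, C1qb 28.7% ± 2.14 and C1qc 18.7% ± 2.14 (SD over 12 libraries). The share of C1qa ranged from 49.3% to 56.6%, that of C1qb from 24.1% to 31.4% and that of C1qc from 14.95% to 22.2%. The level of C1qa varied 8.30-fold between the lowest and the highest library.

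**Figure D1:**
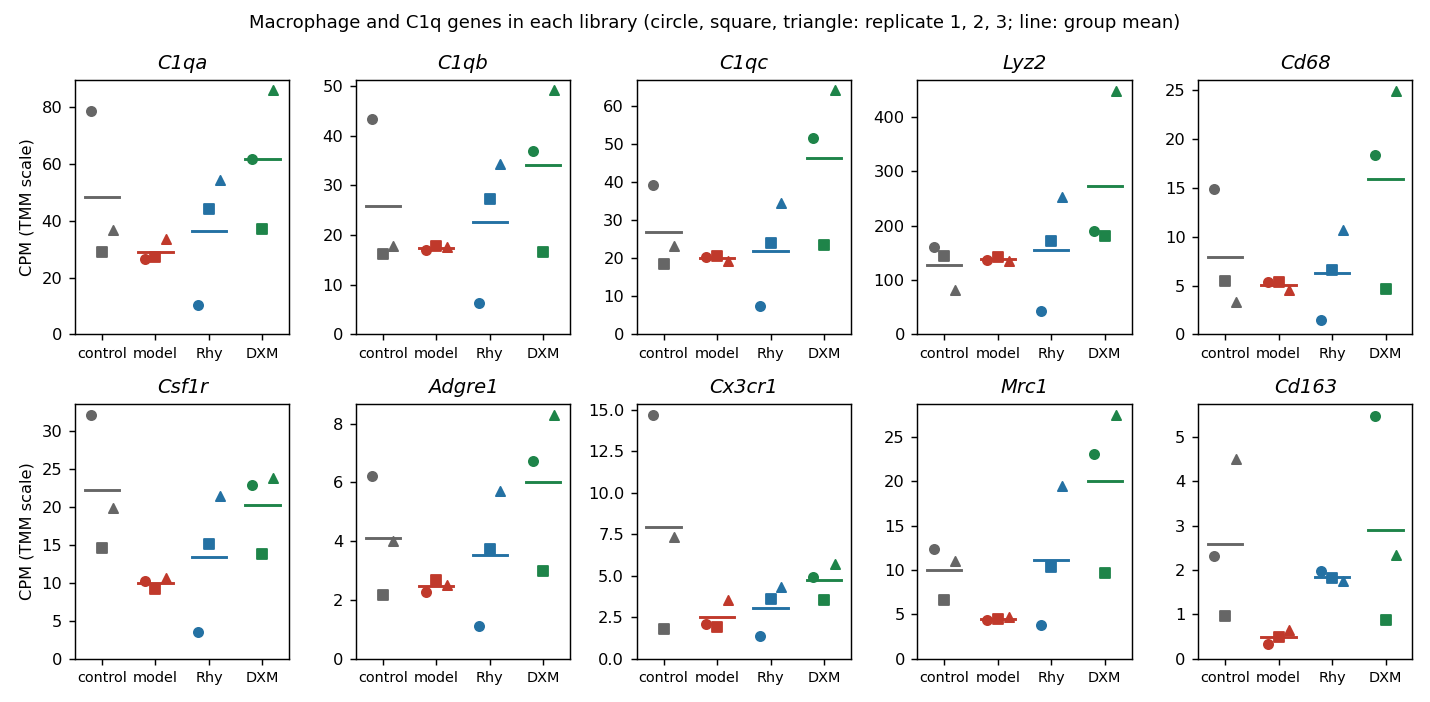
CPM (TMM scale, linear axis from 0) of each gene in the 12 libraries, with circles, squares and triangles for replicates 1, 2 and 3 and a line at each group mean. Rhy 1 is the lowest library for 9 of the 10 genes, and the model libraries of Cd163, at 0.331 to 0.655 CPM, lie below every other library.

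The plot of CPM by library shows a wide spread within the groups that received no DSS or a drug, and a narrow one within the model group. Rhy 1 was the lowest of the 12 libraries for 9 of the 10 genes, Cd163 being the exception. DXM 3 was the highest library for 7 of them (Adgre1, Cd68, C1qa, C1qb, C1qc, Lyz2 and Mrc1), control 1 for Csf1r and Cx3cr1, and DXM 1 for Cd163. Beside this, the summed CPM of 7 fibroblast markers was lowest in Rhy 1 (381.8) and highest in DXM 3 (1962). The part of these markers in the results was not tested. In bulk tissue, fewer macrophages and less RNA per macrophage cannot be told apart.

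In the comparison of model with control, which asks what DSS alone did, 9 of the 10 genes had a negative log2 fold change and Lyz2 had 0.11, while 50.7% of all tested genes were higher. Markers of some other cell types were also lower in the model, with 7 of 7 for fibroblasts (median -0.59), 5 of 6 for endothelium (-0.45) and 10 of 10 for epithelium (-0.35). So were 7 of 8 for dendritic cells (-0.46) and 6 of 8 for T cells (-0.11). Those of other cell types were higher, with 7 of 8 for smooth muscle (0.04) and 5 of 7 for B and plasma cells (0.25). So were 6 of 7 for mast cells (0.52) and 4 of 4 for fat cells (2.15). The part of all these markers in the result was not tested. The larger differences were in the receptors. Cd163 lay at 2.32, 0.974 and 4.501 CPM in controls 1, 2 and 3 and at 0.331, 0.485 and 0.655 CPM in the model libraries. Mrc1 lay at 12.4, 6.68 and 11.03 CPM in the controls and at 4.36, 4.43 and 4.71 CPM in the model. Csf1r lay at 32.1, 14.6 and 19.9 CPM in the controls and at 10.3, 9.22 and 10.6 CPM in the model. For Cd163, Mrc1 and Csf1r every model library was below every control library, an arrangement that 6.61% of all tested genes showed. The log2 fold change was -2.40 for Cd163 (95% interval -3.94 to -0.86, edgeR adjusted p = 0.4586). For Mrc1 it was -1.15 (-2.29 to -0.02, edgeR adjusted p = 0.5162), and for Csf1r -1.15 (-2.25 to -0.05, edgeR adjusted p = 0.513). The exact permutation p for each was 0.1, the smallest that 3 against 3 libraries can give. With model 1 and 2 averaged, the same 3 genes separated, as did 7.87% of all tested genes, and the smallest exact permutation p was 0.2.

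Cx3cr1 lay at 14.7, 1.81 and 7.36 CPM in the controls and at 2.10, 1.94 and 3.51 CPM in the model. Control 2 was below all the model libraries, so the groups overlapped, and the log2 fold change was -1.65 (-3.04 to -0.27, edgeR adjusted p = 0.4878) and -0.87 without control 1. Hence 4 of the 10 genes had an unadjusted p under 0.05, all lower in the model, against 9.62% of all tested genes in both directions and 4.51% in this direction. With model 1 and 2 summed, Cd163 alone of the 10 kept an unadjusted p under 0.05 (log2 fold change -2.31), and the same was so without control 1.

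The C1q chains showed smaller differences. C1qa lay at 78.8, 29.2 and 36.8 CPM in the controls and at 26.5, 27.4 and 33.5 CPM in the model. C1qb lay at 43.3, 16.2 and 17.9 CPM in the controls and at 16.9, 17.8 and 17.6 CPM in the model, and C1qc at 39.2, 18.6 and 23.2 against 20.2, 20.6 and 19.3 CPM. Control 1 held the high value of each chain, and the other controls lay near the model libraries. The log2 fold changes were -0.73 for C1qa, -0.56 for C1qb and -0.43 for C1qc, and all 3 intervals included 0. With model 1 and 2 summed they were -0.67, -0.56 and -0.44, and without control 1 the C1qb value was 0.03.

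The phagocyte genes Lyz2, Cd68 and Adgre1 did not separate the groups. Lyz2 lay at 160.5, 144.2 and 81.1 CPM in the controls and at 137.5, 142.6 and 135.5 CPM in the model, with a log2 fold change of 0.11 (-1.04 to 1.26). Cd68 lay at 14.9, 5.49 and 3.29 CPM in the controls and at 5.35, 5.34 and 4.59 CPM in the model. Adgre1 lay at 6.22, 2.16 and 4.01 CPM in the controls and at 2.26, 2.67 and 2.50 CPM in the model. The log2 fold change was -0.63 for Cd68 and -0.73 for Adgre1, and without control 1 that of Cd68 was 0.22.

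**Figure D2:**
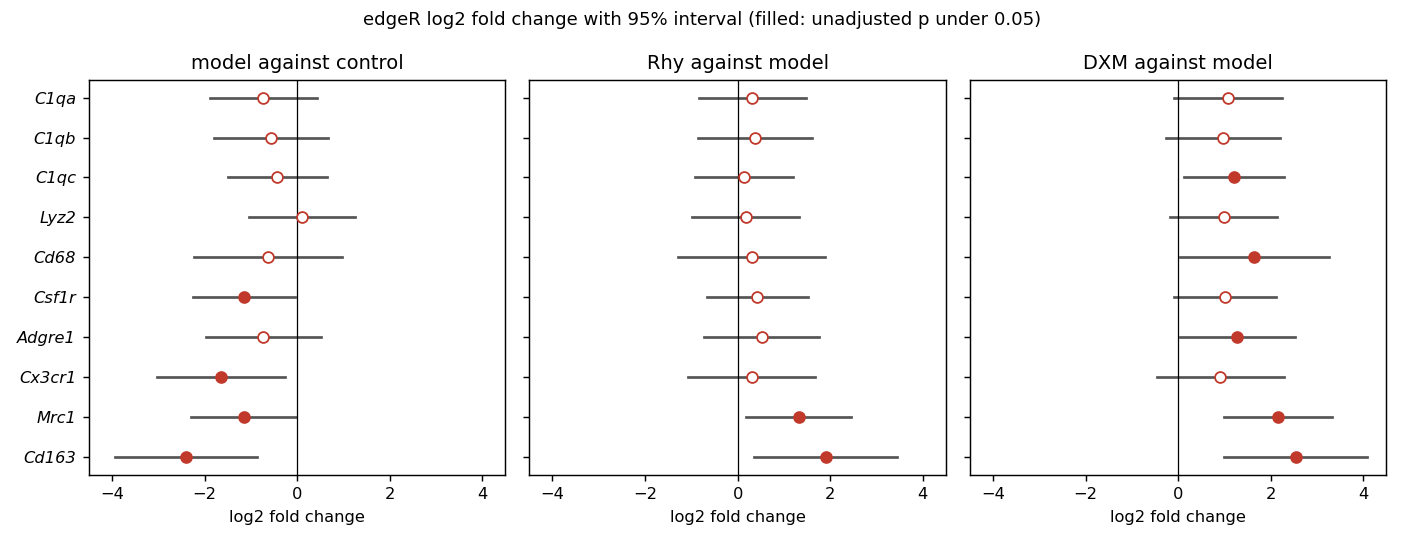
Log2 fold change of each gene with its 95% interval from the edgeR fit of 12 libraries, in 3 comparisons. Filled points have an unadjusted p under 0.05, which are 4 genes for model against control, 2 for Rhy against model and 5 for DXM against model, and no gene passed after adjustment.

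Rhy and DXM were each compared with the model, which asks whether a drug changed the colon under DSS. Both comparisons share the 3 model libraries, so their values are given side by side and are not independent. Relative to the model, the median log2 fold change of the 10 genes was 0.35 for Rhy and 1.15 for DXM, with medians over all 16904 tested genes of -0.01 and -0.01. All 10 were higher in each comparison on the edgeR scale, although in Rhy the values of C1qc, Lyz2 and Cd68 were negative with limma on log2(FPKM + 0.1), and 8 of the 10 were negative without Rhy 3.

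Cd163 and Mrc1 showed the greatest differences in both. Cd163 lay at 1.97, 1.83 and 1.75 CPM in Rhy 1, 2 and 3 and at 5.49, 0.868 and 2.33 CPM in DXM 1, 2 and 3. All 6 libraries were above the 3 model libraries, for a log2 fold change of 1.90 in Rhy (0.36 to 3.44, edgeR adjusted p = 0.9997) and of 2.54 in DXM (0.99 to 4.08, edgeR adjusted p = 0.6218). Without DXM 1, the DXM value was 1.69. Cd163 was the only gene of the 10 to separate Rhy from the model, while 5.51% of tested genes separated in this direction (with model 1 and 2 averaged, Cd163 again and 6.79%). Its counts were low, between 6 and 82 reads per library.

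Mrc1 lay at 3.77, 10.3 and 19.4 CPM in the Rhy libraries and at 23.0, 9.69 and 27.5 CPM in the DXM libraries. Rhy 1 was below the model libraries, and all DXM libraries were above them. The log2 fold change was 1.32 in Rhy (0.18 to 2.46, edgeR adjusted p = 0.9997) and 2.16 in DXM (1.00 to 3.32, edgeR adjusted p = 0.6218). DESeq2 gave Mrc1 an adjusted p of 0.02641 in DXM against model at a log2 fold change of 2.17. Thus 2 of the 10 had an unadjusted p under 0.05 in Rhy (3.72% of all tested genes, and 1.74% in this direction). Markers of some other cell types were higher in Rhy too, with 6 of 7 for fibroblasts (median 0.69, of which 3 had an unadjusted p under 0.05). So were 6 of 6 for endothelium (0.53), 7 of 8 for smooth muscle (0.37) and 9 of 10 for epithelium (0.29). Those of other cell types were lower, with 8 of 8 for T cells (-0.76, of which 2 had an unadjusted p under 0.05) and 6 of 7 for B and plasma cells (-0.76). So were 5 of 7 for mast cells (-0.79) and 4 of 4 for fat cells (-1.385). Of 8 dendritic cell markers, 4 were higher and 4 lower (0.04). The part of all these markers was not tested. With model 1 and 2 summed, neither gene had an unadjusted p under 0.05 in Rhy (log2 fold changes 1.82 for Cd163 and 1.30 for Mrc1), and both did in DXM (2.45 and 2.14). Without Rhy 3, the Mrc1 value in Rhy was 0.65.

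In the DXM comparison, 8 of the 10 genes had every DXM library above every model library, against 10.4% of tested genes, and 5 had an unadjusted p under 0.05, against 7.69% in both directions and 4.89% in this direction. C1qb and Cd68 overlapped because of DXM 2. With model 1 and 2 averaged the same 8 genes separated, as did 12.7% of tested genes. C1qc lay at 51.6, 23.4 and 64.0 CPM in DXM, with a log2 fold change of 1.21 (edgeR adjusted p = 0.637). Cd68 lay at 18.4, 4.63 and 24.9 CPM, with a log2 fold change of 1.65 (edgeR adjusted p = 0.6465). Adgre1 lay at 6.72, 2.99 and 8.31 CPM, with a log2 fold change of 1.27 (edgeR adjusted p = 0.6465). DXM 2 was the lowest of the DXM libraries for all 10 genes, and with model 1 and 2 summed only Mrc1 and Cd163 kept an unadjusted p under 0.05.

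For the other genes in DXM, C1qa lay at 62.0, 37.1 and 86.0 CPM, C1qb at 36.9, 16.5 and 49.1 CPM, and Lyz2 at 191.0, 180.8 and 448.0 CPM. Csf1r lay at 22.9, 13.8 and 23.9 CPM and Cx3cr1 at 4.94, 3.57 and 5.72 CPM. Their log2 fold changes against the model were 1.08 for C1qa, 0.97 for C1qb, 0.98 for Lyz2, 1.01 for Csf1r and 0.91 for Cx3cr1, and each interval included 0. Without DXM 3, the Lyz2 value was 0.42. Model 3 is a library of low Hoxb13, and no DXM library is. With a term for the libraries of low Hoxb13, added after the data were seen, the DXM values were 0.79 for C1qa, 0.62 for C1qb and 0.59 for Lyz2. The same term gave 0.95 for C1qc, 1.13 for Cd68 and 2.84 for Cd163.

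In Rhy, C1qa lay at 10.4, 44.1 and 54.4 CPM, C1qb at 6.25, 27.3 and 34.3 CPM, and C1qc at 7.53, 24.0 and 34.5 CPM. Csf1r lay at 3.51, 15.2 and 21.5 CPM, Lyz2 at 43.7, 171.4 and 252.5 CPM, and Cd68 at 1.46, 6.60 and 10.7 CPM. Adgre1 lay at 1.11, 3.72 and 5.71 CPM and Cx3cr1 at 1.37, 3.59 and 4.30 CPM. For all 8 of these genes, Rhy 1 was below and Rhy 2 and Rhy 3 were above every model library. Their log2 fold changes against the model were 0.14 (C1qc) to 0.52 (Adgre1), and each interval included 0. Rhy 1 is also the library of the Rhy group with no Hoxb13 read, and with a term for the 3 libraries of low Hoxb13, added after the data were seen, the values for C1qc, Cd68 and Lyz2 were -0.01, -0.02 and -0.10 while those of Cd163 and Mrc1 were 1.97 and 1.22.

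DXM was higher than Rhy for the mean of all 10 genes, by a median log2 fold change of 0.76, but every gene overlapped between the groups and none had an unadjusted p under 0.05, against 5.02% of tested genes. Of all tested genes, 7.45% had every DXM library above every Rhy library and 4.71% had every DXM library below. The smallest p was that of C1qc at a log2 fold change of 1.07 (-0.00 to 2.14, edgeR adjusted p = 0.83).

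**Figure D3:**
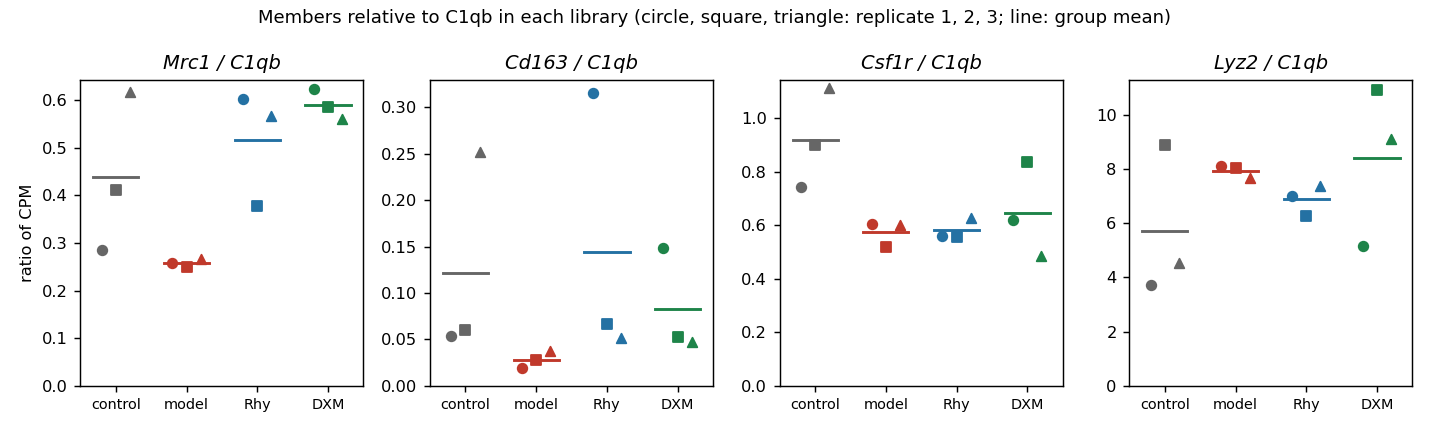
CPM of Mrc1, Cd163, Csf1r and Lyz2 divided by CPM of C1qb in each library, with circles, squares and triangles for replicates 1, 2 and 3 and lines at group means (linear axes from 0). The model libraries of Mrc1 lie at 0.249 to 0.267, below every library of the other groups.

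To see how the genes differed among themselves, each was divided by C1qb within the same library. The ratio of Mrc1 to C1qb was 0.286, 0.412 and 0.617 in the controls and 0.257, 0.249 and 0.267 in the model. In Rhy it was 0.603, 0.378 and 0.566, and in DXM 0.624, 0.586 and 0.560. The model libraries were below all 9 others. The ratio of Cd163 to C1qb was 0.0536, 0.0601 and 0.252 in the controls and 0.0195, 0.0273 and 0.0372 in the model. In Rhy it was 0.315, 0.0670 and 0.0512, and in DXM 0.149, 0.0525 and 0.0474, again with the model libraries below all the rest. Rhy 1, the lowest library for C1qb, thus had the highest ratio of Cd163.

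Of all other tested genes, 0.663% had a ratio to C1qb lower in every model than in every control library. In 0.952% the ratio was higher in every Rhy than in every model library. In 1.12% it was higher in every DXM than in every model library. By CPM without the division, the shares were 6.61%, 5.51% and 10.4%. C1qb itself varied 7.86-fold between libraries. The ratio shares are therefore not a like background for genes that vary with C1qb, such as Mrc1 (r = 0.846) and Csf1r (r = 0.911). How often such genes separate by ratio was not tested. The ratio of Csf1r was also lower in the model (0.519 to 0.606) than in the controls (0.742 to 1.11), but in Rhy (0.555 to 0.627) and DXM (0.486 to 0.837) it overlapped the model. For Lyz2 the ratio was lower in Rhy (6.28 to 7.37) than in the model (7.68 to 8.12), where 2.79% of genes separated in this direction. The ratios of Adgre1 and C1qc were higher in DXM (0.169 to 0.182 and 1.30 to 1.42) than in the model (0.134 to 0.150 and 1.09 to 1.20). With 3 against 3 libraries, an exact permutation test of such a separation cannot give a p below 0.1. Each of these separations was also present with model 1 and 2 averaged.

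**Figure D4:**
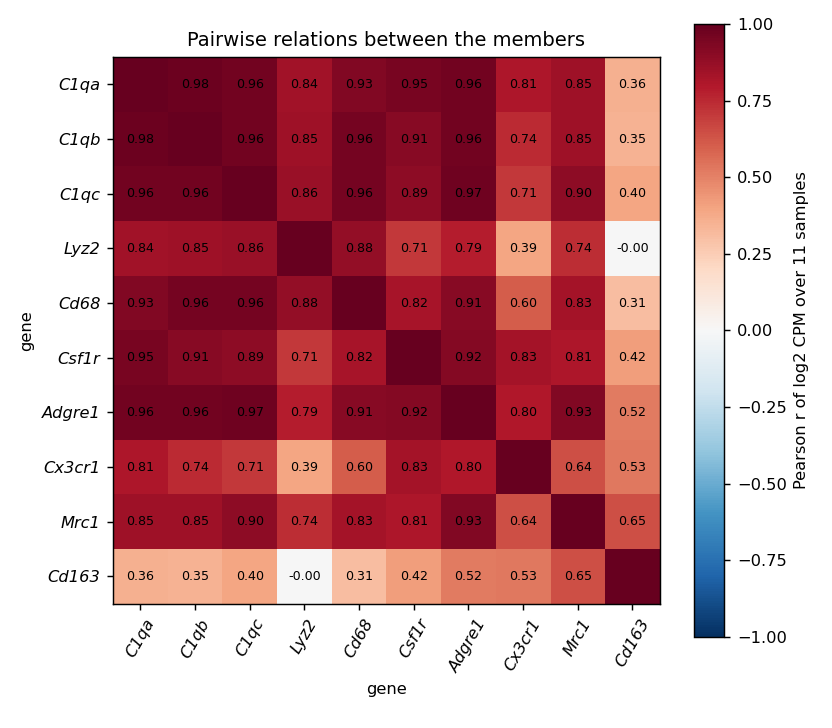
Pearson r of log2 CPM between each pair of the 10 genes over 11 samples (model 1 and 2 averaged), from -1 (blue) to 1 (red). The C1q chains and Adgre1 relate at 0.962 to 0.981, and the row of Cd163 runs from -0.003 to 0.648.

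Most of the genes varied together between mice. Over 11 samples, with model 1 and 2 averaged, 35 of the 45 pairs had an adjusted p under 0.05 for Pearson's r and 38 for Spearman's rho (permutation tests with 100000 resamples, Benjamini-Hochberg over the 45 pairs), and the median r was 0.833. The closest pair was C1qa with C1qb (r = 0.981, rho = 0.927, adjusted permutation p = 0.000225 and 0.00065), and r was 0.950 without the 2 samples farthest from the median. The largest falls in r without such samples were in pairs with Lyz2. With Adgre1 r went from 0.785 to 0.380, with C1qa from 0.840 to 0.452 and with C1qc from 0.863 to 0.494. For the 9 pairs with Cd163 the median r rose instead, from 0.398 to 0.705 without such samples. Over all 45 pairs the median r without them was 0.767. Adgre1 related to C1qc at r = 0.973 and rho = 0.964 (adjusted permutation p = 0.000225 and 0.00045). Within a sample, the genes share the scaling of the library and the amount of tissue other than epithelium, which differ between samples and whose part was not tested. How often pairs of other genes pass was not tested either, so the counts of pairs have no share over all genes beside them. After the mean of each condition was removed, the median r was 0.863, and over the 8 samples with Hoxb13 of at least 5 CPM it was 0.818.

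Cd163 was the exception, since 1 of its 9 pairs passed by Pearson's r and 4 by Spearman's rho. Only Mrc1 passed by both (r = 0.648, rho = 0.673, adjusted permutation p = 0.0405 and 0.0363). With Lyz2 it had r = -0.003 and rho = 0.209 (adjusted permutation p = 0.993 and 0.538). The median r of the 9 pairs was 0.398 over the 11 samples and 0.799 over the 8 samples with Hoxb13 of at least 5 CPM, and 0.705 without the 2 farthest samples of each pair. Of the 36 pairs without Cd163, 34 passed by Pearson's r, the exceptions being Cx3cr1 with Lyz2 (r = 0.391, rho = 0.436, adjusted permutation p = 0.25 and 0.188) and with Cd68 (r = 0.604, rho = 0.545, adjusted permutation p = 0.0605 and 0.0941).

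The search for genes like the mean log2 CPM of the C1q chains covered 11088 protein-coding genes with a mean of at least 5 CPM. The 10 most alike outside the members are named here. They were Sirpa (r = 0.977), which encodes the receptor for CD47 on phagocytes, Bmp6 (0.974), a ligand of the bone morphogenetic protein family, and Tyrobp (0.966), a signaling adaptor of myeloid receptors. Csf1 (0.962), the ligand of Csf1r, and C1s1 (0.960), a protease that works with C1q, followed, and then Gm13889 (0.960), the collagens Col18a1 (0.958) and Col6a1 (0.956), the procollagen protease Adamts2 (0.955) and Procr (0.952), the receptor for protein C. Genes with r above 0.9 numbered 65. Of the members outside the cluster that were searched, r was 0.957 for Cd68, 0.928 for Csf1r, 0.873 for Mrc1 and 0.86 for Lyz2. The named collagens thus lay above Csf1r, Mrc1 and Lyz2.

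**Figure D5:**
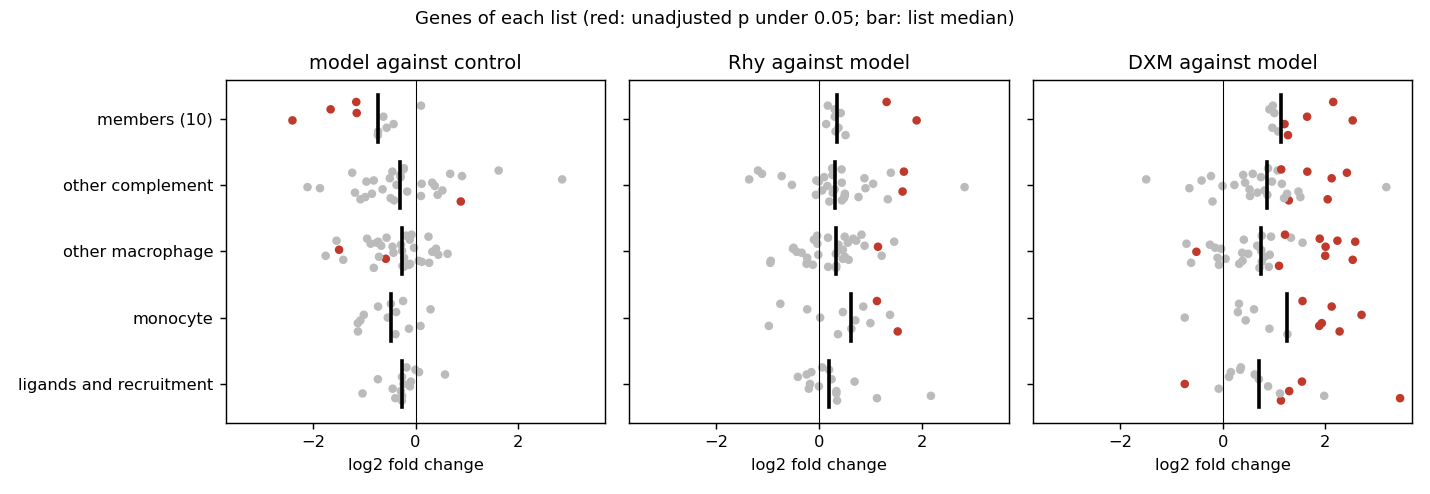
Log2 fold changes from the edgeR fit for the 10 genes and the tested genes of 4 lists, with red for an unadjusted p under 0.05 and a bar at each list median. In DXM against model the medians are 1.15 for the 10 genes, 0.87 for other complement genes, 0.75 for other macrophage genes, 1.26 for monocyte genes and 0.71 for ligands.

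The other genes of the complement pathway, of macrophages and monocytes, and of their ligands were examined in lists, with the plot of list medians beside the members. Of 43 other complement genes 31 were tested. In the model 20 of the 31 were lower than in the control and 11 higher (median -0.30), and 1 had an unadjusted p under 0.05, C1qbp, which encodes a mitochondrial protein that binds the C1q globular head and was higher (log2 fold change 0.88). In Rhy 23 were higher than in the model (median 0.30), and 2 had an unadjusted p under 0.05, Masp1 (1.65), a protease of the lectin pathway, and C4b (1.63), the component cleaved by C1s. C4b lay at 11.6, 215 and 72.0 CPM in Rhy, so that Rhy 2 carried most of the mean. In DXM 25 were higher (median 0.87), and 6 had an unadjusted p under 0.05, among them Serping1 (1.14), which blocks C1r and C1s, Fcna (2.42), a lectin of macrophages, and C1rb (2.05).

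C1r and C1s are the proteases that C1q activates. C1ra lay at 22.9, 14.1 and 12.8 CPM in the controls, 13.6, 12.98 and 10.7 in the model, 4.28, 22.5 and 23.8 in Rhy and 27.8, 21.3 and 42.0 in DXM. C1s1 lay at 43.9, 20.2 and 23.5 CPM in the controls, 19.0, 22.3 and 21.3 in the model, 5.65, 36.4 and 45.2 in Rhy and 48.1, 36.4 and 59.2 in DXM. Both had every DXM library above the model, with log2 fold changes of 1.29 (0.20 to 2.38) and 1.20 (-0.00 to 2.40), and Rhy 1 was the lowest library for each. C3, the central component, had log2 fold changes of 0.43 in the model against control, -0.06 in Rhy and 0.87 in DXM against the model, and all intervals included 0.

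Of 36 other macrophage genes 34 were tested. In the model 26 were lower, and 2 had an unadjusted p under 0.05, Itgax (log2 fold change -1.49), the integrin CD11c, and Ctss (-0.58), a lysosomal protease. In Rhy 20 were higher, and Lyve1 (1.15), a hyaluronan receptor also found on lymphatic vessels, had an unadjusted p under 0.05. In DXM 26 were higher, and 8 of these had an unadjusted p under 0.05, led by Lyve1 (2.01), the chemokine Pf4 (2.59), the scavenger receptor Stab1 (1.89) and the lectin Clec10a (2.54). Another 1 was lower with an unadjusted p under 0.05, Irf8 (-0.51), a transcription factor of monocytes and dendritic cells, which is named after its value was seen. Fcgr1, an IgG receptor typical of macrophages, had log2 fold changes of -1.75 in the model against control, 1.22 in Rhy and 2.00 in DXM against the model, and Itgam, the integrin CD11b, had -0.26, 0.37 and 0.75. Mertk, a receptor for dying cells, had -0.88, -0.03 and -0.70, and its highest library was control 2 at 78.9 CPM.

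Of 16 monocyte genes 13 were tested, and 11 were lower in the model (median -0.48), 10 higher in Rhy (0.63) and 12 higher in DXM (1.26). F13a1 (1.53) and Vcan (1.13) had an unadjusted p under 0.05 in Rhy, and 6 genes did in DXM, led by F13a1 (2.28), Nr4a1 (2.71), Vcan (1.56) and Il1b (1.93). Not every gene of this list is confined to monocytes, since the paper measured Nr4a1 in colonic epithelial cells. Which cells gave these values was not tested. The defining surface markers of blood monocytes were low, with Ccr2 at 0.835 to 5.32 CPM and Ly6c2 at 0 to 3.20 CPM. Their log2 fold changes in DXM were 1.26 and 0.45, with intervals that included 0.

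The ligands of the members differed among themselves. Of 16 genes for ligands and recruitment 15 were tested, 13 of which were lower in the model, 9 higher in Rhy and 13 higher in DXM, with no unadjusted p under 0.05 in the model or Rhy comparisons. In DXM 4 higher genes and 1 lower gene, Cx3cl1, had an unadjusted p under 0.05. Csf1 lay at 9.60, 10.5 and 9.17 CPM in the model and at 28.2, 14.4 and 29.4 CPM in DXM, with a log2 fold change of 1.30 (edgeR adjusted p = 0.637). Il34, the other ligand of Csf1r, had 0.13 in DXM and -0.41 in Rhy. Cx3cl1, the ligand of Cx3cr1, lay at 34.97, 35.7 and 47.1 CPM in the model and at 26.7, 21.4 and 22.5 CPM in DXM, below every model library. With model 1 and 2 averaged, 14.6% of all tested genes separated in this direction. The log2 fold change of Cx3cl1 was -0.74 (edgeR adjusted p = 0.6218), whereas Cx3cr1 had 0.91. Ccl2, a chemokine that draws monocytes, had 3.46 in DXM against the model (edgeR adjusted p = 0.6218) and 2.33 against Rhy, and Cxcl12 had 1.55 in DXM. Beside these lists, 7 of 7 fibroblast markers were higher in DXM than in the model (median 1.10), 6 with an unadjusted p under 0.05. So were 8 of 8 smooth muscle markers (0.68, 4 with such a p) and 6 of 6 endothelial markers (1.04, 2 with such a p). Higher too were 6 of 8 for dendritic cells (0.36, 2 with such a p), 5 of 7 for mast cells (0.92) and 5 of 7 for B and plasma cells (0.14). Of 8 T cell markers, 4 were higher and 4 lower (-0.01). Lower were 8 of 10 epithelial markers (-0.20) and 4 of 4 fat cell markers (-1.37). The part of these markers was not tested.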

How the data were processed

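RNA-Seq of colonic tissue was run on the HiSeq X10 system. The authors deposited whole-number counts of reads per gene, without normalization, made with HISAT2 2.0.5 on mm10 and featureCounts 1.5.0-p3, as named with DESeq2 1.16.1 in the submitters' processing notes. They also deposited FPKM values, which equal the counts divided by gene length and by DESeq2-scaled library size (100% of 262980 values within 0.1% of a constant ratio). Annotated spans match GENCODE M21 for 9 of the 10 genes, the exception being the start of Csf1r. No column fell outside the sample list.

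The counts were fitted with edgeR 4.0.16 under R 4.3.3 (TMM, filterByExpr with a minimum count of 10, quasi-likelihood test on group means of all 12 libraries, two-sided, Benjamini-Hochberg adjustment within each comparison). FPKM served for levels between genes and for limma 3.58.1 on log2(FPKM + 1) and log2(FPKM + 0.1). Further alternatives were DESeq2 1.42.0, its size factors, only the groups compared, all genes with a count, a replicate block, model 1 and 2 summed, and each library left out. A term marking the libraries whose Hoxb13 was below 5 CPM and group separations with model 1 and 2 averaged were added after seeing the data. The tests were checked on simulated counts. Exact permutation used scipy 1.17.1. The 10 genes, the lists and the motifs were chosen with earlier results of these data known. Named from the lists were up to 4 genes per list and comparison with the smallest unadjusted p under 0.05, together with a few genes that were always named. For the complement list, 1 gene that this rule names is not reported here. Sequences are from RefSeq, with windows for 7 of the 10 genes. Replicate numbers come from sample titles.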

Additional observations from a re-analysis of the deposited data

How the results depend on the processing

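Of 840 values (10 genes, 4 comparisons, 21 alternatives each), 819 kept their direction and side of the threshold, 20 changed sign and 1 newly passed, Mrc1 in DXM against model under DESeq2 (2.17, adjusted p = 0.02641, where the adjusted p under the alternatives was otherwise above 0.05). The causes were not tested. In Rhy against model, limma gave C1qc -0.057 and Lyz2 -0.13 with log2(FPKM + 1), and Cd68 -0.070, C1qc -0.091 and Lyz2 -0.13 with log2(FPKM + 0.1), while the Hoxb13 term gave Cd68 -0.025, C1qc -0.013 and Lyz2 -0.10. Leaving out each library in turn gave ranges that crossed 0 for Cd68 (-1.02 to 0.22), C1qb (-0.80 to 0.032) and Lyz2 (-0.16 to 0.30) in model against control, for Cd163 in DXM against Rhy (-0.21 to 1.07), and in Rhy against model for Adgre1 (-0.020 to 0.93), Csf1r (-0.095 to 0.87), Cd68 (-0.32 to 0.76), C1qa (-0.091 to 0.76), C1qb (-0.050 to 0.82), C1qc (-0.34 to 0.54), Cx3cr1 (-0.0082 to 0.65) and Lyz2 (-0.36 to 0.61), each negative without Rhy 3.

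The number of all genes past an adjusted p of 0.05 was 0 in edgeR in each comparison. It was 1 for model against control with genes of any count and with only the groups compared, 2 for DXM against model with only the groups compared, and 2 for Rhy against model and 2 for DXM against model with limma on log2(FPKM + 0.1). DESeq2 called 46 for model against control, 5 for Rhy against model, 51 for DXM against model and 9 for DXM against Rhy. Leaving out each library gave 0 to 1 for model against control and 0 to 1 for Rhy against model. With the replicate block, 0 genes were called in each comparison, and correlations of same-numbered libraries ran from -0.283 to 0.389. Libraries of different number were not compared in this way, so these values do not settle whether the numbers pair libraries. By counts without length scaling, the chains made up 44.87% (C1qa), 25.56% (C1qb) and 29.57% (C1qc). Cd163, at 6 to 82 reads per library, is the gene most limited by depth.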
